A study of Mus musculus with 157 samples.

Results

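E proteins, Id proteins and the transcription factors that join LMO2 form one regulatory circuit of early T cell development. Its 9 members taken here are the E protein genes Tcf3 (encoding E2A) and Tcf12 (HEB), the Id genes Id1, Id2 and Id3, and Lmo2 with Lyl1, Tal1 and Hhex. They were found by matching Ensembl mouse identifiers to these symbols in both gene tables of the series, which gave 9 of 50686 genes, each present once in each table. The study measured RNA in mouse thymus and thymic lymphoma, with 157 libraries in 2 sequencing runs, and set mice with a D/AAA pair of alleles of Cdc20, the activator of the anaphase-promoting complex, against control +/D mice. The series describes the D/AAA mice as aneuploid.

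E proteins are basic helix-loop-helix transcription factors that bind the E-box, a short palindromic DNA motif, as dimers, and in the thymus they drive T lineage genes such as those for the pre-T cell receptor and for antigen receptor recombination. Id proteins lack the basic region, pair with E proteins and keep them off DNA. LMO2 binds no DNA itself and bridges E protein dimers that contain TAL1 or LYL1 to other factors, and its overexpression in thymocytes is a known cause of T cell leukaemia in mouse and human.

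The earlier run held thymocytes sorted by stage, DN1, DN2, DN3, DN4 and DP (DN for double negative and DP for double positive, in CD4 and CD8), which the labels give only as stage names. RERT2-Cdc20(D/AAA) mice gave 9 libraries at DN1, 1 at DN2, 5 at DN3, 6 at DN4 and 11 at DP, and RERT2-Cdc20(+/D) mice gave 6 at DN1, 8 each at DN2, DN3 and DN4, and 7 at DP. The same run held early tumours of RERT2-Cdc20(D/AAA) mice, 5 libraries of DP cells and 7 whose labels name no stage. The latter are called unsorted here, a word that the labels do not use. The later run held tissue whose labels name no stage either, also called unsorted here. Its tumours were 22 of RERT2-Cdc20(D/AAA), 10 of RERT2-Cdc20(D/AAA);p53(+/D), 3 of RERT2-Cdc20(D/AAA); MYCChr6, 14 of LCK-Cdc20(D/AAA); MYCChr6, 4 of LCK-Cdc20(+/D); MYCChr6, 2 of CD4-Cdc20(D/AAA); MYCChr6 and 1 of p53(-/-). Its thymuses without tumour were 9 of RERT2-Cdc20(D/AAA), 3 of RERT2-Cdc20(D/AAA); MYCChr6, 2 of RERT2-Cdc20(+/D); MYCChr6 and 6 of RERT2-Cdc20(+/D). Every group other than the p53(-/-) tumour carries the D allele of Cdc20, the controls included, so no group here has 2 unaltered Cdc20 alleles as far as the labels say. The labels give the prefixes RERT2, LCK and CD4 and the tag MYCChr6 without spelling them out, and give no age. They do not say whether libraries of a group came from separate animals, so each p refers to the spread from library to library, which may be in part technical.

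Library totals ranged from 21199 to 11595463 counts in the earlier run, where the second lowest was 2701382, and from 1708619 to 8009572 in the later run. The shallow library is DN1 D/AAA replicate 8. The median level of Cdc20 itself was 19.9 CPM (counts per 1000000 of the scaled library total) in D/AAA and 21.9 CPM in +/D cells at DN1, and 195 CPM in D/AAA and 166 CPM in +/D cells at DP, which does not test the AAA change. The DN1 libraries carried markers of other cells at high levels: in the 6 +/D libraries the summed CPM of natural killer (NK) cell markers was 3219 to 4490, and that of NKT cell markers 2645 to 3377, whereas Kit, the receptor that marks early T progenitors, had a median of 62.6 CPM in DN2 +/D and 11 CPM in DN1 +/D libraries. The labelled DN1 cells are therefore called by their label only. DN2 +/D libraries were low in Cd44, a surface marker by which DN1 and DN2 cells are usually sorted, with 0.906 to 11.5 CPM, against 157 to 229 CPM in DN1 +/D libraries. Tcf3, Tcf12 and Id3 had counts in every library of both runs. Id2 had counts in 80 of 81 earlier and 76 of 76 later libraries, Id1 in 63 and 45, Lmo2 in 38 and 31, Lyl1 in 41 and 59, and Hhex in 59 and 36. Tal1, an E protein partner that is silenced as T cells mature, had counts in 3 of 81 and 7 of 76 libraries, at most 10 counts in one, and passed the low-count filter in no comparison. Exons of Lyl1 overlap those of Nfix on the opposite strand, and the strand setting of the counting is not given in the sources used here, so Lyl1 levels are uncertain.

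The first question was how the circuit is set along the labelled stages, from the +/D cells of the earlier run. Between the libraries labelled DN1 and DN2, both E protein genes rose while Id2, Id3, Lmo2 and Hhex fell. The DN1 libraries were also high in NK, NKT and B cell markers, so this step cannot be read as T cell maturation alone. The part of those cells was not tested. After DN2 Tcf3 passed no test, Tcf12 rose at DP, and Id3 rose at DN3 and again at DN4. Of the 8 members tested between DN2 and DN1, 6 changed, 2 upwards and 4 downwards, where 48.5% of all 15278 genes tested did.

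Tcf3 lies on mouse chr10:80409514-80433647 (GRCm38, minus strand) and encodes the E2A splice forms E12 and E47. It had 326 to 469 CPM at DN2, with a median of 443, against 162 to 316 CPM at DN1, with a median of 219. The DN2 and DN1 libraries did not overlap. The log2 fold change was 0.94 ± 0.13 (SE, 8 DN2 and 6 DN1 libraries; adjusted p = 1.26e-07 by edgeR's quasi-likelihood test with Benjamini-Hochberg adjustment, the test behind every adjusted p here unless another tool is named). Its medians after that were 460 CPM at DN3, 434 at DN4 and 425 at DP, and the ranges of DN2 to DP overlapped one another; in no later step did Tcf3 pass the test.

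Tcf12, on chr9:71842688-72111871 (minus strand), encodes HEB, the partner of E2A in thymocytes. It had 208 to 321 CPM at DN2, with a median of 225, against 38.7 to 69.5 CPM at DN1, with a median of 53.7. Every DN2 library lay above every DN1 library, and the log2 fold change was 2.19 ± 0.15 (adjusted p = 1.50e-15). It fell slightly at DN4, with a log2 fold change of -0.44 ± 0.13 against DN3 (adjusted p = 0.0130, and 0.0555 with no low-count filter), and rose at DP, where it had 333 to 529 CPM, against 178 to 228 CPM at DN4. That last step was 1.03 ± 0.13 on the log2 scale (adjusted p = 1.84e-08), and DP and DN4 libraries did not overlap.

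Id2, on chr12:25093799-25097140 (minus strand), is the Id gene that NK and innate lymphoid cells need. It had 11.1 to 28.2 CPM at DN2, with a median of 16.6, against 788 to 1439 CPM at DN1, with a median of 1160.0. DN1 stood apart from every later stage, and the log2 fold change of DN2 against DN1 was -6.07 ± 0.29 (adjusted p = 2.23e-19). These are bulk libraries, in which fewer cells of a type and less RNA per cell cannot be told apart, here and in all that follows. The 7 summed NK cell markers moved with Id2, at 248 to 559 CPM in the DN2 and 3219 to 4490 CPM in the DN1 libraries. Ncr1, the NK receptor NKp46, had 0 to 3.38 CPM at DN2 and 152 to 189 CPM at DN1, and the part of these cells in the difference was not tested. Id2 fell again at DP, at 2.5 to 12.2 CPM with a median of 6.79, against 9.39 to 29.9 CPM with a median of 18.6 at DN4 (log2 fold change -1.38 ± 0.26, adjusted p = 3.48e-05).

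Id3, on chr4:136143497-136145755 (plus strand), is induced by receptor signals in thymocytes and restrains E2A and HEB after the pre-T cell receptor is made. At DN1 it had 109 to 156 CPM in +/D cells, with a median of 134. Its median then followed the order 43.4 CPM at DN2, 102 at DN3, 273 at DN4 and 338 at DP. The log2 fold change was -1.44 ± 0.19 for DN2 against DN1 (adjusted p = 4.70e-08), 1.08 ± 0.18 for DN3 against DN2 (adjusted p = 1.25e-04) and 1.41 ± 0.18 for DN4 against DN3 (adjusted p = 1.99e-07). The DN4 libraries, at 193 to 342 CPM, did not overlap the DN3 libraries, at 59.9 to 159 CPM. From DN4 to DP the change was 0.33 ± 0.18 and did not pass the test (adjusted p = 0.133). Id1, on chr2:152736251-152737410 (plus strand) and known as an Id gene of progenitor cells, stayed low, with medians of 0.136 to 1.43 CPM in the sorted groups before DP and 0 to 8.18 CPM across the 7 DP +/D libraries, and passed the test in no step.

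**Figure D1:**
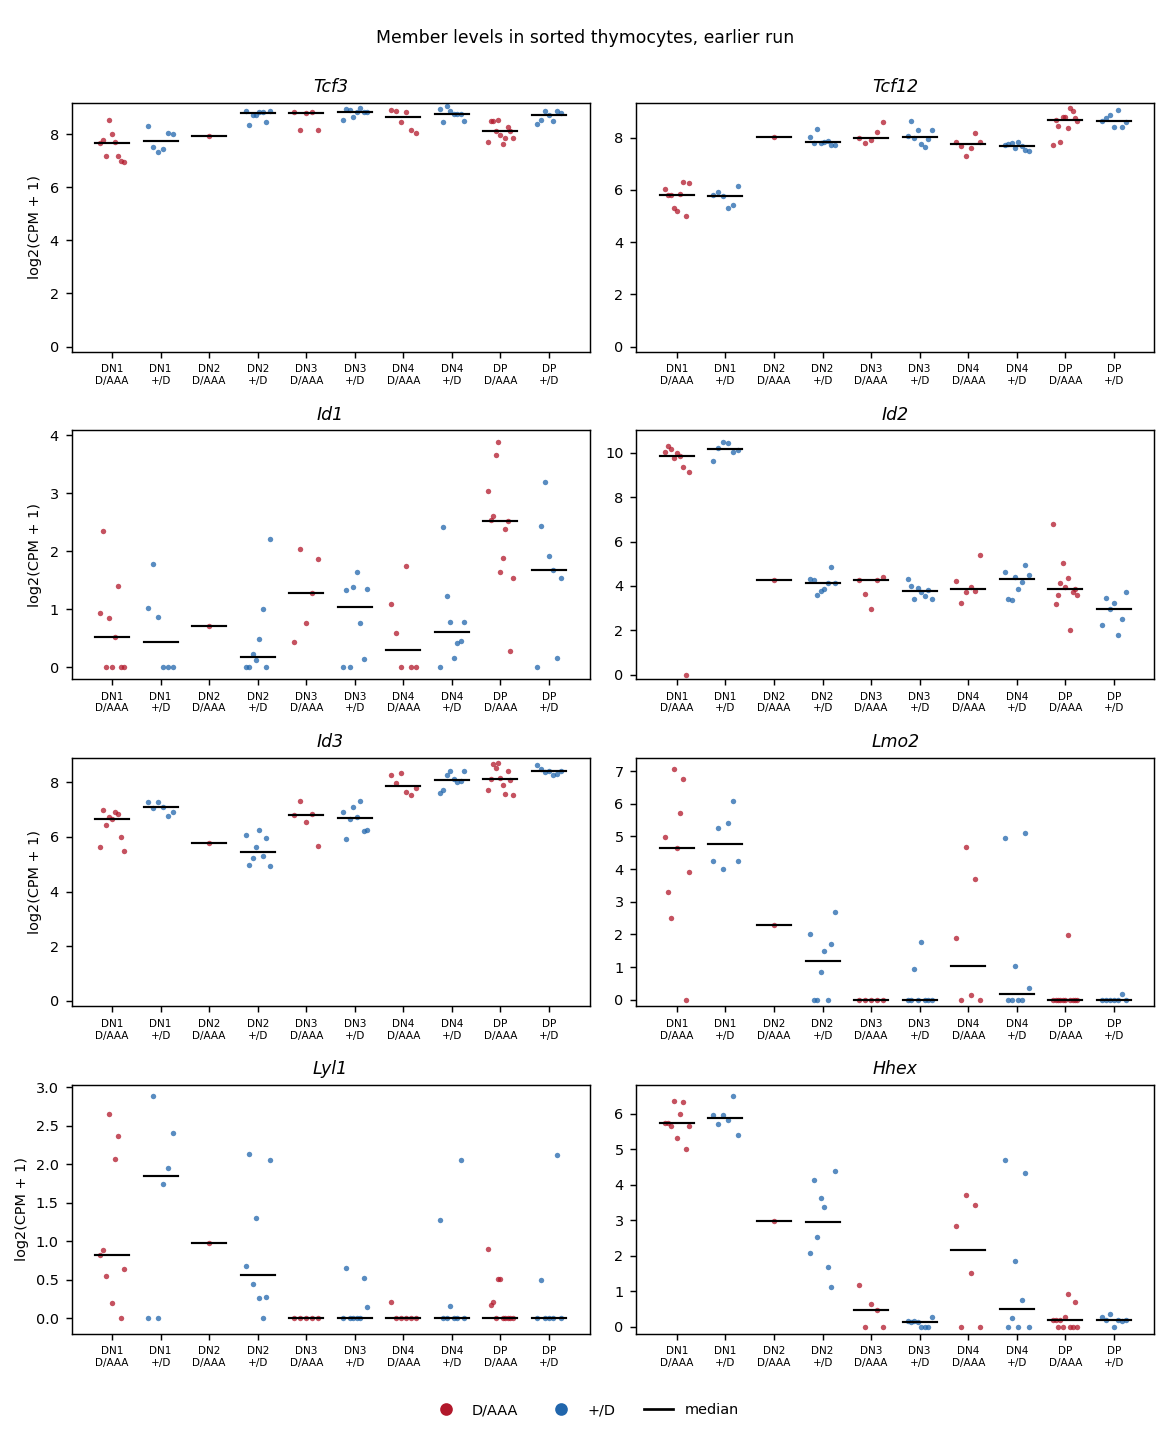
Levels of 8 members in sorted thymocytes of the earlier run, as log2(CPM + 1), with D/AAA left of +/D at each stage from DN1 to DP; points are libraries and bars are medians. Id2, Lmo2 and Hhex have their highest medians at DN1, with a few DN4 libraries of Lmo2 and Hhex well above the rest of that stage; Tcf12 has its highest medians at DP and Id3 its lowest +/D median at DN2.

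Per kilobase of exon, Id2 was the highest member at DN1 in +/D cells, with a median of 476 CPM per kb, against 75 for Id3, 54.1 for Tcf3, 12.8 for Lmo2, 11.5 for Hhex and 3.46 for Tcf12. At DP the order was Id3 at 189, Tcf3 at 105, Tcf12 at 25.2 and Id2 at 2.79 CPM per kb; Tcf12 has the longest exon union, 15529 bases, which lowers its value on this scale. The ratio of the summed Id genes to the summed E protein genes, both in CPM per kb, had a median of 9.73 at DN1, 0.266 at DN2, 0.471 at DN3, 1.3 at DN4 and 1.44 at DP in +/D cells. The ratio was thus lowest at DN2, where the E protein sum was 127 and the Id sum 30.7 CPM per kb. RNA ratios do not measure protein dimers.

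Since the E protein and Id genes moved in opposite directions at DN2, the DNA before their starts is shown, as E proteins bind E-boxes. RefSeq's table for GRCm38.p6 holds windows of 250 bases before to 50 after a start for 7 of the 9 members (Tcf3, Tcf12, Id2, Id3, Lyl1, Tal1 and Hhex), with 3 windows for Tcf12. The motif searched was CANNTG, which reads the same on both strands. A special case of it that reads the same on both strands is CAGCTG. Another special case, searched on both strands, is CAGGTG. The GATA factor motif GATAAG was searched on both strands too. The 250 bases before the start are given 5′ to 3′ on the strand of the gene, with capitals marking CANNTG, for Tcf3 (chr10:80433636-80433885, minus strand), Tcf12 (chr9:72111820-72112069, minus strand, its most upstream window), Id2 (chr12:25096093-25096342, minus strand) and Id3 (chr4:136143572-136143821, plus strand).
Tcf3: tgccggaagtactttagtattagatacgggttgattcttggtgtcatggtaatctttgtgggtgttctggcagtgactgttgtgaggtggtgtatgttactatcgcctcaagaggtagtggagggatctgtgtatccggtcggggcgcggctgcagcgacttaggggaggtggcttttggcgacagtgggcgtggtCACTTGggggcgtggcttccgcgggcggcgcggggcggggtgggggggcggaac
Tcf12: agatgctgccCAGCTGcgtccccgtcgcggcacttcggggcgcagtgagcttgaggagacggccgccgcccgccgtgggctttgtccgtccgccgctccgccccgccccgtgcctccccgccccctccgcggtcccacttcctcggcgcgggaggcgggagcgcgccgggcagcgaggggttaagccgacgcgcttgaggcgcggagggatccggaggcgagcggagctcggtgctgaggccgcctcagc
Id2: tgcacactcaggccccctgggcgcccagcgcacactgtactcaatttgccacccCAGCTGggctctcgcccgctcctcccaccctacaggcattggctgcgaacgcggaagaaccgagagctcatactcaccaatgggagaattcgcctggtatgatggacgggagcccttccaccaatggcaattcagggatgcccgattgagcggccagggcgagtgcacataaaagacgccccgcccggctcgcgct
Id3: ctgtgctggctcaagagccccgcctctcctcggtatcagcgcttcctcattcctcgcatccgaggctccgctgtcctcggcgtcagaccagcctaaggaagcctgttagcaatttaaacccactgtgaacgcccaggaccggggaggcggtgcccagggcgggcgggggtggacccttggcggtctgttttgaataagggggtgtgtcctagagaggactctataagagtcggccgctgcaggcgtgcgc

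A single CANNTG stood in the Tcf3 bases shown, 54 bases before the start, 1 in those of Tcf12, 240 bases before, and 1 in those of Id2, 196 bases before; those of Tcf12 and Id2 read CAGCTG. The Id3 window held none, nor did that of Hhex. The starts are those of RefSeq and differ from the ends of the Ensembl gene spans given above. The Id2 and Id3 bases shown therefore lie within those spans, and the Tcf3 and Tcf12 bases overlap theirs in part. Of 32841 promoter windows of the same length, 72.3% held CANNTG, 16.3% held CAGCTG, 20.2% held CAGGTG on either strand and 7.44% held GATAAG, which no member window held. A match is a run of letters and not a shown binding site.

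Lmo2, on chr2:103957986-103981878 (plus strand), is expressed in blood progenitors and B cells and is shut off in T cells. At DN1 the 6 +/D libraries had 18, 37.2, 15.2, 41.5, 66.5 and 18.2 CPM. At DN2 the level was 0 to 5.43 CPM, with 3 of 8 libraries at 0, and the log2 fold change against DN1 was -4.23 ± 1.26 (adjusted p = 0.00545). Every DN2 library lay below every DN1 library. At DN3, 6 of 8 libraries were at 0 and the others at 0.914 and 2.40 CPM.

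Hhex, on chr19:37434810-37440731 (plus strand), is a homeobox gene of haematopoietic progenitors and B cells and a target of Lmo2 in mouse models of T cell leukaemia. It had 1.17 to 19.7 CPM at DN2, with a median of 7.0, against 40.8 to 88.3 CPM at DN1, with a median of 58.2 (log2 fold change -2.78 ± 0.83, adjusted p = 0.00541). At DN3 it had 0 to 0.206 CPM, and the DN3 and DN2 libraries did not overlap. The change of DN3 against DN2 was -6.48 ± 1.10 (adjusted p = 1.87e-04), and with Id3 made 2 of 8 members changed in that step, where 4.35% of all genes tested did. The Lyl1 gene (chr8), an Lmo2 partner related to Tal1, had 0 to 6.38 CPM at DN1 and medians under 1 CPM later, and passed the test in no step.

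At DN4, 4 of 8 members changed against DN3 (Tcf12, Id3, Lmo2 and Hhex), where 15% of all genes did. The change of Lmo2, and the size of that of Hhex, rested on a pair of libraries. Lmo2 had 29.8 and 33.4 CPM in DN4 +/D replicates 1 and 7, and 0 to 1.07 CPM in the other 6. Hhex had 25.0 and 19.1 CPM in replicates 1 and 7, and 0 to 2.61 CPM in the others. The same replicates had 1182 and 866 CPM summed over 7 B cell markers, against 21.3 to 54.1 CPM in the other 6. With all libraries the log2 fold change of DN4 against DN3 was 4.34 ± 1.29 for Lmo2 (adjusted p = 0.0180) and 5.97 ± 1.09 for Hhex (adjusted p = 1.36e-04). Without replicates 1 and 7, a choice made after seeing the data, it was -0.75 ± 1.14 for Lmo2 (adjusted p = 0.750) and 2.60 ± 0.84 for Hhex (adjusted p = 0.0328). Limma voom, with all libraries and with sample quality weights, called neither gene (adjusted p = 0.531 for Lmo2 and 0.167 for Hhex). DESeq2 did not call Lmo2 (adjusted p = 0.0563).

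The step to DP changed 4 of 8 members (Tcf12, Id2, Lmo2 and Hhex), where 49.5% of all genes changed. Lmo2 had 1 count in all 7 DP +/D libraries, against 568 counts in the 8 DN4 +/D libraries, a ratio, per unit of depth, of 0.00237 (exact 95% interval 5.998e-05 to 0.0133, which covers counting error only). The fitted log2 fold changes were -7.88 ± 1.84 for Lmo2 (adjusted p = 5.08e-04) and -5.17 ± 1.10 for Hhex (adjusted p = 1.70e-04). Without the same pair of DN4 libraries they were -2.79 for Lmo2 (adjusted p = 0.147) and -1.80 for Hhex (adjusted p = 0.0761), whereas Tcf12 and Id2 were still called. By limma voom, with all libraries, the adjusted p was 0.183 for Lmo2 and 0.326 for Hhex.

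**Figure D2:**
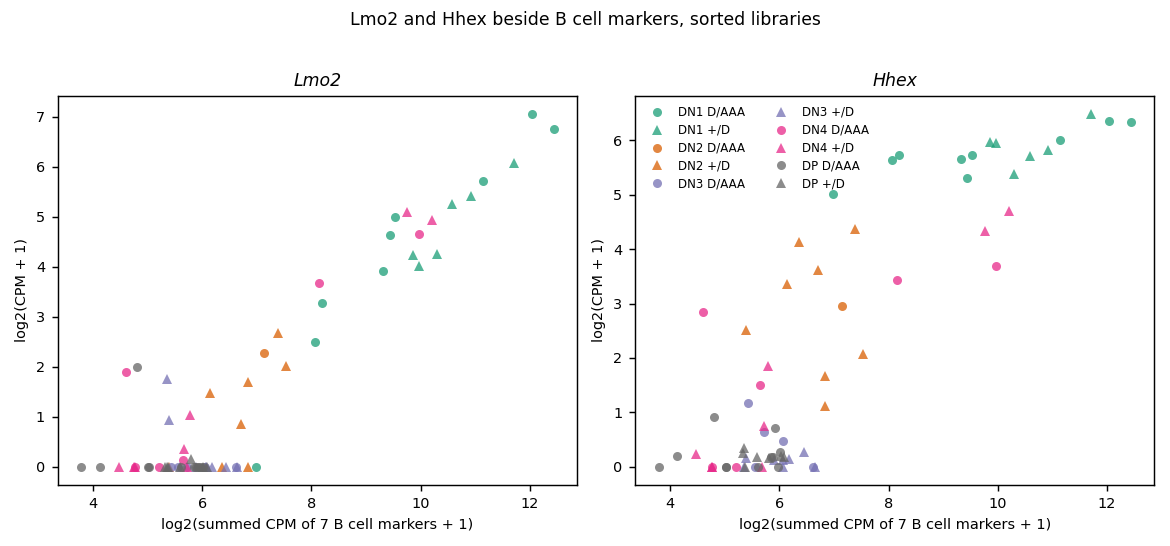
Lmo2 (left) and Hhex (right) as log2(CPM + 1) against the log2 of the summed CPM of 7 B cell markers plus 1, in the sorted libraries of the earlier run; circles are D/AAA and triangles +/D, and colours give the stage. The DN4 libraries with Lmo2 and Hhex above the rest are also those with B cell marker sums far to the right, next to the DN1 libraries.

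B cell markers were also present at DN1, where the 7-gene sum was 125 to 5536 CPM in D/AAA and 924 to 3329 CPM in +/D libraries. In D/AAA cells the highest sums, 5536, 4185 and 2264 CPM, were in replicates 7, 4 and 6, which had 107, 132 and 51.7 CPM of Lmo2, the 3 highest of that group. The part of B cells in the Lmo2 level was not tested.

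Genes around the circuit were read from lists of known E protein targets, of LMO2 complex partners and of progenitor genes. Of 10 E protein targets, 7 rose and 2 fell at DN2 against DN1, with a median log2 fold change of 3.27 where the median over all genes was 0.00319. In that step 48.5% of all genes tested were called. The DN1 libraries were high in NK, NKT and B cell markers, and the part of those cells in these changes was not tested. Ptcra, the pre-T cell receptor chain, had a log2 fold change of 7.07 ± 0.51 (adjusted p = 7.51e-14), Rag2, of the recombinase, 5.68 (adjusted p = 6.85e-13), Hes1, a Notch target, 5.11 (adjusted p = 8.26e-13) and Gfi1, a repressor, 3.73 ± 0.23 (adjusted p = 1.05e-16). At DN4 against DN3, 2 rose and 6 fell, among them Hes1 (-4.00), Ptcra (-1.97) and Notch1 (-1.55), and at DP against DN4 7 rose and 2 fell, with Cd4, the co-receptor, at 6.32 (adjusted p = 1.39e-12) and Rag1 at 3.93.

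Of 14 LMO2 complex partners, 10 were tested along the stages. At DN2 against DN1 5 rose and 3 fell, with a list median of 1.03, among them Runx1 (2.80), a core factor of blood development, Ssbp3 (1.83) and Ldb1 (-0.92), the dimerising partner of LMO2. None changed at DN3 against DN2. At DN4 against DN3 1 rose and 4 fell, with Runx1 at -1.59 and Cbfa2t3, a corepressor, at -1.64. At DP against DN4 5 rose and 2 fell, with Ssbp2, an LDB1 stabiliser, at 2.30. Of 11 progenitor genes tested, 4 rose and 2 fell at DN2 against DN1. Of all genes tested, 48.5% were called at DN2 against DN1 and 49.5% at DP against DN4, so the 6 of 11 progenitor genes were near that share, and the 8 and 7 of 10 partners are a description only. Erg, an ETS factor, had 19.8 to 46.2 CPM at DN2, against 0 to 0.159 CPM at DN1, and Kit rose by 2.45 on the log2 scale. Flt3, a cytokine receptor of multipotent progenitors, had a log2 fold change of -6.81.

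The second question was whether D/AAA cells differed from +/D cells of the same stage. Every sorted +/D library has a lower title number than every D/AAA library, so genotype cannot be told apart from library order. The early tumours all have title numbers above 182156, as do some of the sorted D/AAA libraries. No member passed the test at any stage. At DN1 0 of 7 members changed, where 0% of all genes did. At DN3 it was 0 of 5, with 0% of all genes; at DN4 0 of 5, with 0.00810% of all genes; and at DP 0 of 5, with 0.00803% of all genes. DN2 has 1 D/AAA library and no test, and its values were 243 CPM for Tcf3, 255 for Tcf12, 18.4 for Id2, 53.3 for Id3, 3.87 for Lmo2 and 6.78 for Hhex. By edgeR, unadjusted p was under 0.05 for 353 of all genes at DN1, 549 at DN3, 798 at DN4 and 1325 at DP. DESeq2 called 8, 13, 26 and 68 genes and limma voom 0, 2, 1 and 8 at those stages, no member among them. Among members, unadjusted p was under 0.05 for Id3 at DN1 and for Tcf3 and Id2 at DP.

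At DP, Tcf3 had 196 to 376 CPM in 11 D/AAA libraries, with a median of 277, against 333 to 475 CPM in 7 +/D libraries, with a median of 425. The ranges overlapped, and the log2 fold change was -0.50 ± 0.14 (adjusted p = 0.269). Id2 had 3.05 to 110.4 CPM in D/AAA cells, with a median of 13.7, against 2.5 to 12.2 CPM in +/D cells, with a median of 6.79 (log2 fold change 1.82 ± 0.56, adjusted p = 0.283). D/AAA replicates 1 and 5, at 110.4 and 31.3 CPM, were the highest, and without them the Id2 change was 0.86. Replicate 1 also had 751 CPM summed over the NK list, against 26.9 to 193 CPM in the other D/AAA and 16.8 to 32.9 CPM in the +/D libraries. Of that sum Gzma made 723 CPM, while Nkg7 was at 1.73 CPM and Klrd1 and Eomes at 0. The log2 fold changes of Tcf12 (-0.02 ± 0.18), Id3 (-0.18 ± 0.16) and Id1 (0.97 ± 0.75) were below or not far above their standard errors.

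At DN1, Id2 had 0 to 1263 CPM in D/AAA cells, with 0 counts in the shallow replicate 8 and 557 to 1263 CPM in the other 8, against 788 to 1439 CPM in +/D cells; the log2 fold change was -0.42 ± 0.34 with all libraries and -0.30 ± 0.17 without that one. Id3 had 43.7 to 126 CPM in D/AAA, against 109 to 156 CPM in +/D cells, at -0.51 ± 0.22 with and -0.51 ± 0.21 without it. Lmo2 had 30.9, 8.75, 4.63, 132, 23.8, 51.7, 107, 0 and 14.1 CPM in the D/AAA libraries, a range that enclosed that of the +/D libraries. At DN3 the log2 fold changes were -0.21 ± 0.14 for Tcf3 and 0.04 ± 0.25 for Id3. Lmo2 was at 0 in all 5 DN3 D/AAA libraries. At DN4, where D/AAA replicates 3 and 5 had Lmo2 at 24.4 and 11.9 CPM and B cell marker sums of 1000 and 282 CPM, the changes were -0.16 ± 0.15 for Tcf3 and -0.11 ± 0.16 for Id3. Summed red cell genes were higher in DN4 D/AAA libraries, at 1781 to 35940 CPM, than in DN4 +/D libraries, at 118 to 3039 CPM, overlapping in range. A test of genotype by stage over DN1, DN3, DN4 and DP, with DN2 left out, called 0 of 8 members, where 0.134% of all genes were called. Id2 was the nearest (adjusted p = 0.249) and the one member at an unadjusted p under 0.05. Among libraries with title numbers up to 182156 its adjusted p was 0.0196. That cut leaves out D/AAA libraries only. At DP it keeps D/AAA replicates 1 and 5, at 110.4 and 31.3 CPM of Id2. It drops DP D/AAA replicates 6 to 11, at 3.05 to 19.4 CPM. With all libraries, edgeR called 22 of all genes, DESeq2 97 and limma voom 26.

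The third question was what the circuit looks like in early tumours of D/AAA mice. In early DP tumours no member was called against DP thymocytes. In unsorted early tumours Id2 was higher, and Tcf3, Tcf12, Id1 and Id3 lower, than in DP thymocytes, while no member was called against DN1 cells. The unsorted tumours were not alike. Replicates 2 and 3 had 12.5 and 28.2 CPM of Id2, against 909 to 1282 CPM in the other 5. Those 5 had NK cell marker sums of 2135 to 5108 CPM, against 26.9 to 751 CPM in DP thymocytes of D/AAA mice. The part of other cells in this contrast was not tested. For early DP tumours against DP thymocytes of D/AAA mice, the same DP libraries as were set against +/D cells, 0 of 5 members changed, where 0% of all 12245 genes did by edgeR; 2719 genes had unadjusted p under 0.05, none of them a member, and DESeq2 called 855 and limma voom 2125 genes, no member among them. Tcf3 had 139, 223, 191, 207 and 290 CPM in the early DP tumours, against 196 to 376 CPM in DP thymocytes (log2 fold change -0.41 ± 0.21, adjusted p = 0.247). Tcf12 had 350, 531, 306, 491 and 377 CPM, against 209 to 552 CPM in DP thymocytes. The Id3 values were 372, 210, 63.5, 495 and 306 CPM, against 183 to 419 CPM in DP thymocytes, and reached past that range on both sides.

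Id2 had 12.2, 13.8, 150.4, 38.2 and 24.4 CPM in the early DP tumours, against a median of 13.7 CPM in DP thymocytes (log2 fold change 1.05 ± 0.67, adjusted p = 0.360). Tumour replicate 3, the highest, also had the highest summed NK list of that group, 1990 CPM, against 53.3 to 567 CPM in the other 4. That sum was nearly all Gzma, a granzyme of killer lymphocytes, at 1956 CPM, while Nkg7 was at most 6.98 CPM and Ncr1 and Eomes were at 0 in all 5 tumours. Without DP thymocyte replicates 1 and 5, the highest in Id2, the Id2 change was 2.02 (adjusted p = 0.0136). Leaving the highest libraries out of the DP group alone raises the change by construction, so that value is no test. Without DP replicate 1 and tumour replicate 3, the highest of each group, the Id2 change was 0.68 (adjusted p = 0.366). Lmo2 was at 0 in 4 of 5 and Hhex in all 5 early DP tumours.

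**Figure D3:**
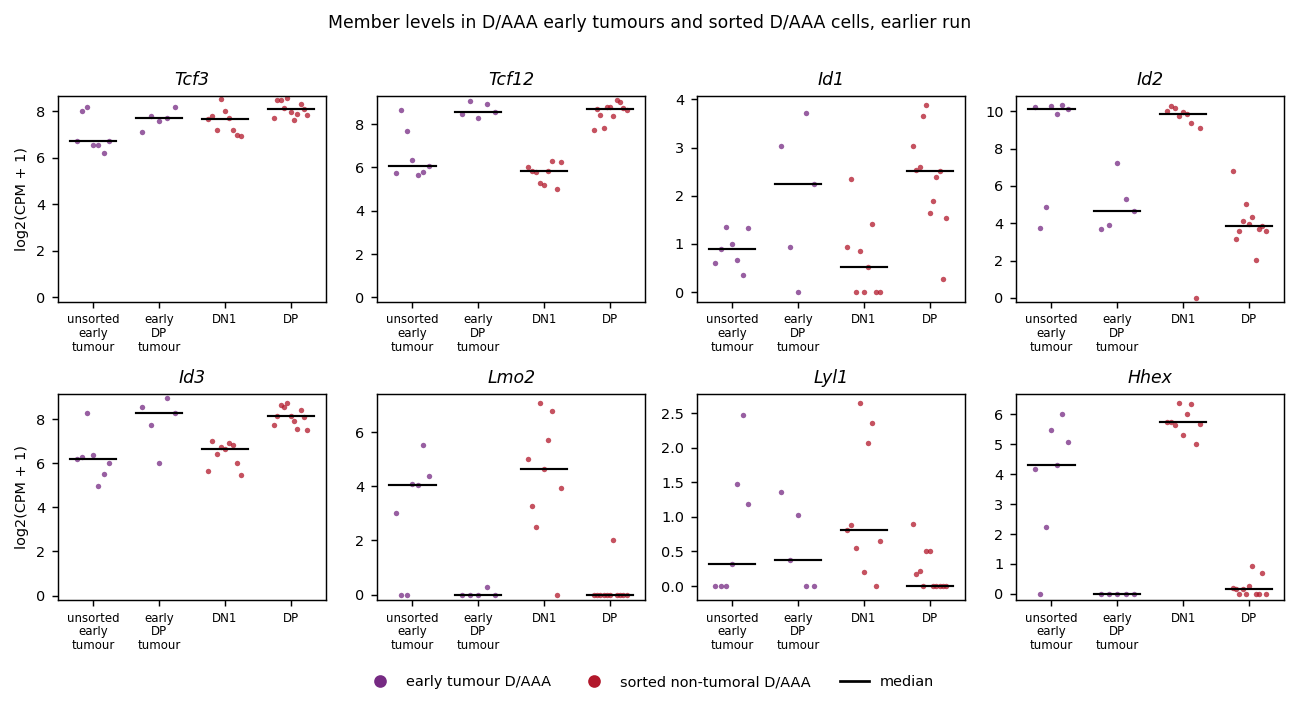
Levels of 8 members as log2(CPM + 1) in unsorted early tumours, early DP tumours, DN1 and DP thymocytes of D/AAA mice; points are libraries and bars are medians. The 5 unsorted tumours other than replicates 2 and 3 lie among the DN1 libraries or just above them in Id2 and within the DN1 range in Lmo2, and replicates 2 and 3 lie within that of the DP libraries in Id2.

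In the 7 unsorted early tumours, Id2 had 1190, 12.5, 28.2, 1230, 909, 1282 and 1097 CPM, Lmo2 had 6.97, 0, 0, 16.1, 15.7, 45.2 and 19.6 CPM, and Hhex had 16.8, 0, 3.75, 43.8, 18.6, 62.8 and 32.2 CPM, in the order of replicates 1 to 7. Replicates 2 and 3 were therefore low in all 3 genes, and the other 5 high. Tcf12 ran the other way, with 399 and 201 CPM in replicates 2 and 3 and 49.6 to 79.6 CPM in the other 5, as did Tcf3, with 255 and 291 CPM in those 2 and 73.3 to 106 CPM in the others. The NK cell marker sums were 407 and 440 CPM in replicates 2 and 3 and 2135 to 5108 CPM in the others. B cell marker sums were 23.7 and 21.9 CPM in replicates 2 and 3 and 249 to 1680 CPM in the others, against 12.8 to 63.4 CPM in D/AAA DP thymocytes. Myeloid marker sums were 2.65 to 2263 CPM over the 7 tumours, with a median of 429, against 21.4 to 76.6 CPM in D/AAA DP thymocytes. The part of these cells was not tested. The summed markers of DP thymocytes were 10.8 to 319 CPM over the 7, against 3445 to 10020 CPM in DP thymocytes.

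Against DP thymocytes, 5 of 5 members tested changed, where 29.1% of all genes did. The filter removed Lmo2, Hhex and Lyl1 here. Alternatives that kept them differ in the filter or in the libraries used. In 4 of these Lmo2 and Hhex were called, at 4.97 to 6.49 and 6.40 to 7.47 on the log2 scale. Lyl1 was not called in the 2 that kept it. DP thymocytes had 0 to 2.99 CPM of Lmo2 and 0 to 0.896 CPM of Hhex. Id2 rose by 5.25 ± 0.81 on the log2 scale (adjusted p = 1.04e-04). The Tcf3 change was -0.91 ± 0.26 (adjusted p = 0.0117), that of Tcf12 -1.56 ± 0.39 (adjusted p = 0.00464), that of Id3 -1.53 ± 0.36 (adjusted p = 0.00276) and that of Id1 -2.46 ± 0.66 (adjusted p = 0.00795). The adjusted p of Tcf3 was 0.0874 among libraries with title numbers above 182156, and that of Id1 was 0.0554 in 1 fit of all groups of the run. Replicates 2 and 3 were set apart on the levels of these same genes, so values without them describe the other 5 tumours and are no test: the log2 fold changes were then -2.70 for Tcf12, -2.32 for Id3 and -1.59 for Tcf3. Of 10 E protein targets 6 fell and none rose, with a median of -1.98, where the median over all genes was -0.0111. Of 8 LMO2 complex partners 2 fell, Ssbp2 (-2.47) and Cbfa2t3 (-1.79).

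Against DN1 cells of D/AAA mice, 0 of 6 members changed, where 0.00862% of all genes did. These tumours are the same libraries as in the comparison with DP cells. The log2 fold change was 0.02 ± 0.73 for Id2, 0.16 ± 0.40 for Id3, -0.42 ± 0.32 for Tcf3, -1.12 ± 0.63 for Hhex (adjusted p = 0.420) and -1.57 ± 0.94 for Lmo2 (adjusted p = 0.461). Tcf12 was at 1.24 ± 0.41 (adjusted p = 0.195), the one member with an unadjusted p under 0.05, and at 0.15 without replicates 2 and 3. Of all genes 1672 had unadjusted p under 0.05 by edgeR, and DESeq2 called 378 and limma voom 23, no member among them. A p that misses the threshold does not show that the levels were alike.

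The fourth question was how established tumours differ from unsorted thymus, in the later run. Id3 was lower in tumours of RERT2-Cdc20(D/AAA) mice than in either kind of thymus, while Lmo2 and Hhex were at 0 in most of them. Between thymuses without tumour, D/AAA and +/D, 0 of 4 members changed, where 0% of all genes did; 907 genes had unadjusted p under 0.05 by edgeR, no member among them, and DESeq2 called 49 and limma voom 1. The log2 fold change there was 0.54 ± 0.31 for Id2 (adjusted p = 0.672), -0.17 ± 0.16 for Tcf3, 0.09 ± 0.15 for Tcf12 and -0.21 ± 0.18 for Id3.

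In the 22 RERT2-Cdc20(D/AAA) tumours, Id3 had 0.210 to 84.0 CPM, with a median of 26.6, against 50.8 to 145 CPM in D/AAA thymus, with a median of 96.8, and 89.3 to 132 CPM in +/D thymus, with a median of 117. No tumour reached the lowest +/D thymus. Against +/D thymus, 2 of 6 members changed, where 41.5% of all genes did, and the log2 fold change of Id3 was -1.94 ± 0.44 (adjusted p = 8.30e-04). Against D/AAA thymus, 2 of 6 members changed, where 34.9% of all genes did, with Id3 at -1.73 ± 0.39 (adjusted p = 7.92e-04). Both comparisons share the tumours. Tumour replicates 15 and 21 had the lowest Id3, 0.210 and 1.54 CPM, and without them the change against +/D thymus was -1.81 (adjusted p = 1.23e-05).

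Tcf3 had 58.9 to 204 CPM in these tumours, with a median of 94.3, against medians of 63.5 CPM in D/AAA and 71.5 CPM in +/D thymus. It passed the test against D/AAA thymus, at 0.62 ± 0.19 (adjusted p = 0.0111), and was at 0.45 ± 0.22 against +/D thymus (adjusted p = 0.105). Tcf12 had 53.5 to 243 CPM, with a median of 121, around the thymus medians of 126 CPM in D/AAA and 118 CPM in +/D, and was at -0.14 against D/AAA and -0.05 ± 0.20 against +/D thymus. Id2 had 4.63 to 60.3 CPM, with a median of 20.5, against medians of 28.8 CPM in D/AAA and 17.5 CPM in +/D thymus, and passed neither test.

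Id1 had 0 to 17.1 CPM in the tumours, with a median of 1.21 and 3 of 22 at 0, against 0 to 4.0 CPM in D/AAA thymus and 0 to 0.735 CPM in +/D thymus. The highest tumour value was in replicate 21. Its log2 fold change was 3.05 ± 1.10 against +/D thymus (adjusted p = 0.0261) and 1.87 ± 0.93 against D/AAA thymus (adjusted p = 0.118). The call against +/D thymus was lost without tumour replicates 15 and 21 (2.51, adjusted p = 0.0501), with limma voom (1.87, adjusted p = 0.0991) and in 1 fit of all groups of the run (adjusted p = 0.0646). Lmo2 was at 0 in 14 of 22 tumours and reached 1.36 CPM, and Hhex was at 0 in 19 of 22 and reached 2.14 CPM. Lmo2 was also at 0 in 6 of 9 D/AAA and all 6 +/D thymuses. Hhex had 0 to 2.88 CPM in D/AAA thymus, with a median of 0.222, and 0 to 2.76 CPM in +/D thymus, with a median of 1.06 and 2 of 6 at 0.

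The low-count filter removed Lmo2 and Hhex from both comparisons with thymus. With no filter the log2 fold change of Hhex was -2.72 ± 1.05 against +/D thymus (adjusted p = 0.0669) and -1.93 ± 0.97 against D/AAA thymus (adjusted p = 0.175). In 1 fit of all groups of the run it was -2.72 ± 0.89 against +/D thymus, which passed the test (adjusted p = 0.0155), and -1.94 ± 0.84 against D/AAA thymus (adjusted p = 0.0781). Lmo2 passed in neither setting against either thymus.

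Across the 22 tumours, 36 pairs of members were compared on log2 CPM. Tcf12 and Id1 went together, with Pearson's r of 0.63 (permutation p = 0.00125, adjusted 0.0450) and Spearman's rho of 0.69 (permutation p = 0.0005, adjusted 0.0180), and r was 0.60 without the 2 tumours farthest from the median of Tcf12. It was the 1 pair past the threshold, and its adjusted p was 0.0853 with a prior count of 0.5 and 0.0709 with relative log expression factors, so the call rests on those settings.

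Of 10 E protein targets, 2 rose and 5 fell in these tumours against +/D thymus, with a median of -0.72, where the median over all genes was 0.05. Of all genes, 41.5% were called in that comparison. Rag2 (-3.15), Rag1 (-2.85) and Cd4 (-1.91) fell, and Hes1 (5.14) and Notch1 (2.04) rose. Against D/AAA thymus none rose and 5 fell, where 34.9% of all genes were called. Of 8 LMO2 complex partners, 1 rose and 3 fell against +/D thymus, among them Ssbp2 (-1.59) and Ldb1 (-0.72). That is near the 41.5% of all genes called and is a description only. Tcf4, the E protein gene for E2-2 and not a member here, had a log2 fold change of -1.43 against +/D thymus (adjusted p = 0.026) and -1.57 against D/AAA thymus (adjusted p = 0.00622).

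**Figure D4:**
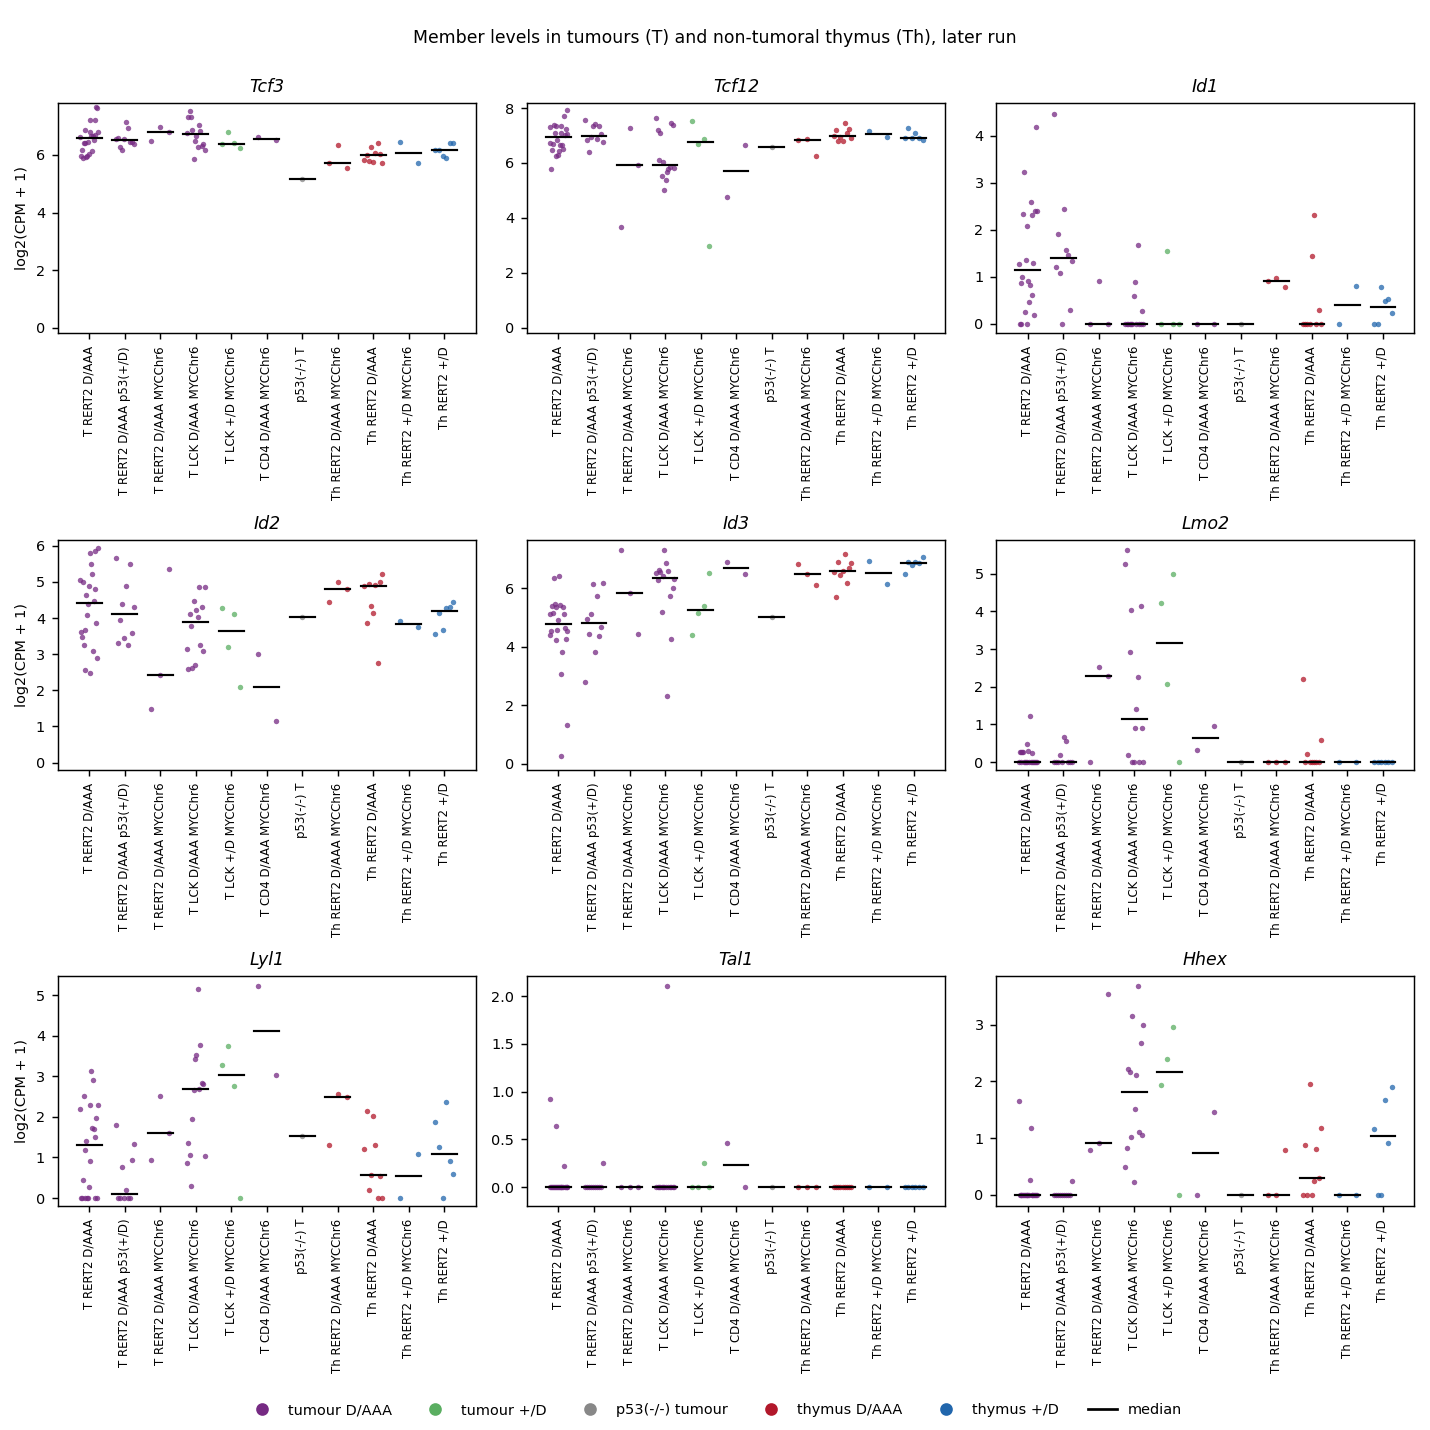
Levels of the 9 members as log2(CPM + 1) in the 11 groups of the later run, tumours (T) before thymuses without tumour (Th); points are libraries and bars are medians. Id3 is lower in the RERT2-Cdc20(D/AAA) tumours than in thymus, and Lmo2, Lyl1 and Hhex are highest in tumours with MYCChr6.

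Tumours of RERT2-Cdc20(D/AAA);p53(+/D) mice gave no member called against those of RERT2-Cdc20(D/AAA) mice, 0 of 6, where 1.29% of all genes were called by edgeR. Of all genes 1651 had unadjusted p under 0.05, no member among them, and DESeq2 called 361 and limma voom 459, no member among them. Id3 had 5.93 to 72.3 CPM in the p53(+/D) tumours, with a median of 27.3, against a median of 26.6 CPM in the others (log2 fold change 0.16 ± 0.44). Tcf3 had medians of 90.1 CPM in p53(+/D) and 94.3 CPM in the others, and Tcf12 127 and 121 CPM in the same order. Lyl1 was at -1.74 ± 0.91 (adjusted p = 0.387), Lmo2 at 0 in 7 of 10 and Hhex at 0 in 9 of 10 p53(+/D) tumours.

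Among tumours, Lmo2 was above 0 in most libraries of each MYCChr6 group, and in 8 of 22 RERT2-Cdc20(D/AAA) and 3 of 10 p53(+/D) tumours. In the 14 LCK-Cdc20(D/AAA); MYCChr6 tumours Lmo2 had 0 to 48.3 CPM, with a median of 1.26, and 4 libraries at 0; the 4 highest had 48.3, 37.2, 16.5 and 15.5 CPM. Hhex had 0.168 to 11.8 CPM in them, with a median of 2.59 and none at 0. Both genes were removed by the low-count filter in the comparison with RERT2-Cdc20(D/AAA) tumours, since too few libraries reached its minimum. With no such filter the log2 fold change was 5.91 ± 0.88 for Lmo2 (adjusted p = 4.03e-06) and 4.23 ± 0.77 for Hhex (adjusted p = 4.55e-05). Id1, removed by the filter too, went the other way, with 0 to 2.18 CPM and 10 of 14 at 0 in the LCK tumours, against 0 to 17.1 CPM in the RERT2 tumours (-3.18 ± 0.85 with no filter, adjusted p = 0.00422). The summed B cell markers were 4.87 to 1326 CPM in the LCK tumours and 0.326 to 37.8 CPM in the RERT2 tumours. The 2 LCK tumours with the highest Lmo2, replicates 2 and 1, had B cell sums of 9.27 and 82.1 CPM, and the LCK tumour with the highest sum, replicate 9, had 1.66 CPM of Lmo2.

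With the filter, 2 of 5 members changed between LCK-Cdc20(D/AAA); MYCChr6 and RERT2-Cdc20(D/AAA) tumours, where 35.3% of all genes did. Id3 had 3.98 to 157 CPM in the LCK tumours, with a median of 81.6, against 0.210 to 84.0 CPM in the RERT2 tumours, with a median of 26.6 (log2 fold change 1.33 ± 0.38, adjusted p = 0.00591). Lyl1 had 0.219 to 34.5 CPM, with a median of 5.41, against 0 to 7.75 CPM, with a median of 1.47 (1.82 ± 0.65, adjusted p = 0.0257). LCK replicate 9 had the highest Lyl1 and, at 5.63 CPM, the highest level of the overlapping gene Nfix in its group. Its TMM scaling factor was 0.44, against 0.836 or more in every other library of the run, which raises all its CPM. Without replicate 9 the Lyl1 change was 1.29 (adjusted p = 0.111) and that of Id3 1.43 (adjusted p = 0.00176). Tcf3 (0.13 ± 0.17), Tcf12 (-0.44 ± 0.23, adjusted p = 0.138) and Id2 (-0.75 ± 0.34, adjusted p = 0.0837) did not pass. The RERT2 tumours are the same libraries as in the comparisons with thymus. These tumours differ in MYCChr6 and in the LCK or RERT2 prefix at once, which cannot be told apart in this comparison.

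E protein targets were lower in the LCK tumours, 6 of 10 with none higher, at a median of -1.75, where the median over all genes was 0.00. Of all genes, 35.3% were called in this comparison. Ptcra had 0 to 5.8 CPM in them, with a median of 0.426, against 0.203 to 174 CPM in RERT2 tumours, with a median of 60.6 (log2 fold change -6.32 ± 0.78, adjusted p = 1.13e-07). Notch1 (-4.83), Hes1 (-3.85) and Cd3e (-1.17) also fell. Of 8 LMO2 complex partners 6 fell, with a median of -1.14, among them Runx1 (-1.62), Ssbp2 (-1.53), Ssbp4 (-1.17) and Ssbp3 (-1.11). Tcf4 rose by 1.81 (adjusted p = 0.00213), as did Spi1, a factor of myeloid and B cells and early progenitors, by 2.61. Myeloid marker sums were 122 to 2347 CPM in the LCK tumours, with a median of 392, against 24.8 to 186 CPM in the RERT2 tumours, with a median of 67.0. NKT marker sums had medians of 400 CPM in the LCK and 30.3 CPM in the RERT2 tumours, and the part of either cell type was not tested.

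Among the 14 LCK tumours, 36 pairs of members were compared and Id2 and Hhex went together, with Pearson's r of 0.91 and Spearman's rho of 0.91 (permutation p = 5e-05 each, adjusted 0.0018), and r of 0.94 without the 2 tumours farthest from the median of Id2. It was the 1 pair past the threshold. The 4 tumours with the highest Hhex, replicates 10, 6, 14 and 12, were also the 4 with the highest summed dendritic cell markers, 23.6 to 53.7 CPM in a group that began at 4.53 CPM. The part of dendritic cells was not tested.

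The 3 RERT2-Cdc20(D/AAA); MYCChr6 tumours, which share the RERT2 prefix, had Lmo2 at 0, 4.75 and 3.88 CPM, Hhex at 0.725, 0.880 and 10.7 CPM and Id3 at 159, 56.3 and 20.5 CPM. Against RERT2-Cdc20(D/AAA) tumours 0 of 6 members changed, where 9.23% of all genes did by edgeR. Of all genes 3132 had unadjusted p under 0.05, among members Id3 (1.37 ± 0.66, adjusted p = 0.218), and DESeq2 called 1586 and limma voom 836 genes, no member among them. Lmo2 and Hhex were removed by the filter here too. With no filter they were called, at 4.18 ± 1.11 (adjusted p = 0.0113) and 4.44 ± 1.18 (adjusted p = 0.0114). The B cell marker sums of the 3 tumours were 5.07, 240 and 320 CPM, against at most 37.8 CPM in the RERT2 tumours, so the replicate at 0 for Lmo2 had the lowest. Tcf12 had 11.8, 152 and 60.2 CPM and was at -0.73 ± 0.43 (adjusted p = 0.323), and at -1.77 (adjusted p = 0.0264) without replicate 2. Since replicate 2 had the highest Tcf12 of the 3, that value describes the remaining tumours only. Of 10 E protein targets 7 fell and none rose, with a median of -4.45, and of 6 progenitor genes 3 rose, Mef2c (5.49), Bcl11a (3.66) and Spi1 (2.99).

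Genotype within the LCK-MYCChr6 tumours changed 0 of 7 members, where 0% of all genes changed. By edgeR 653 genes had unadjusted p under 0.05, no member among them, and DESeq2 called 19 and limma voom 0. Id3 had 3.98 to 157 CPM in the 14 D/AAA tumours, against 20.2, 34.9, 40.9 and 92.0 CPM in the 4 +/D tumours (log2 fold change 0.70 ± 0.56). Lmo2 had 17.8, 3.21, 30.8 and 0 CPM and Hhex 2.82, 4.28, 6.75 and 0 CPM in the +/D tumours. The log2 fold change of D/AAA against +/D was -0.45 ± 1.47 for Lmo2, 0.02 ± 0.94 for Hhex and 0.05 ± 0.98 for Lyl1, with standard errors larger than the changes.

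Against +/D thymus, the LCK-Cdc20(+/D); MYCChr6 tumours had Id3 lower, at -1.33 ± 0.33 (adjusted p = 0.00826, and 0.140 in 1 fit of all groups of the run), which was 1 of 6 members, where 32.3% of all genes changed. The Id3 values of tumour replicates 1 to 3 lay below the thymus range of 89.3 to 132 CPM, and replicate 4, at 92.0 CPM, lay within it. Replicate 4 stood apart in other members too, with 6.88 CPM of Tcf12 against 102 to 182 CPM in the other 3, and with Lmo2, Lyl1 and Hhex at 0. Without it Id3 was at -1.91 (adjusted p = 3.4e-05), and since replicate 4 had the highest Id3 of the 4, this describes the other 3 tumours only. The number of members called also depended on replicate 4, being 3 without it, with Lyl1 and Lmo2 added; since that tumour is at 0 in both, this describes the other 3 tumours only. Of 9 E protein targets 7 fell and none rose, with a median of -4.06, and of 8 LMO2 complex partners 3 fell, Ssbp2 (-4.38), Cbfa2t3 (-2.15) and Ldb1 (-0.86). Progenitor gene Spi1 rose by 3.24.

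**Figure D5:**
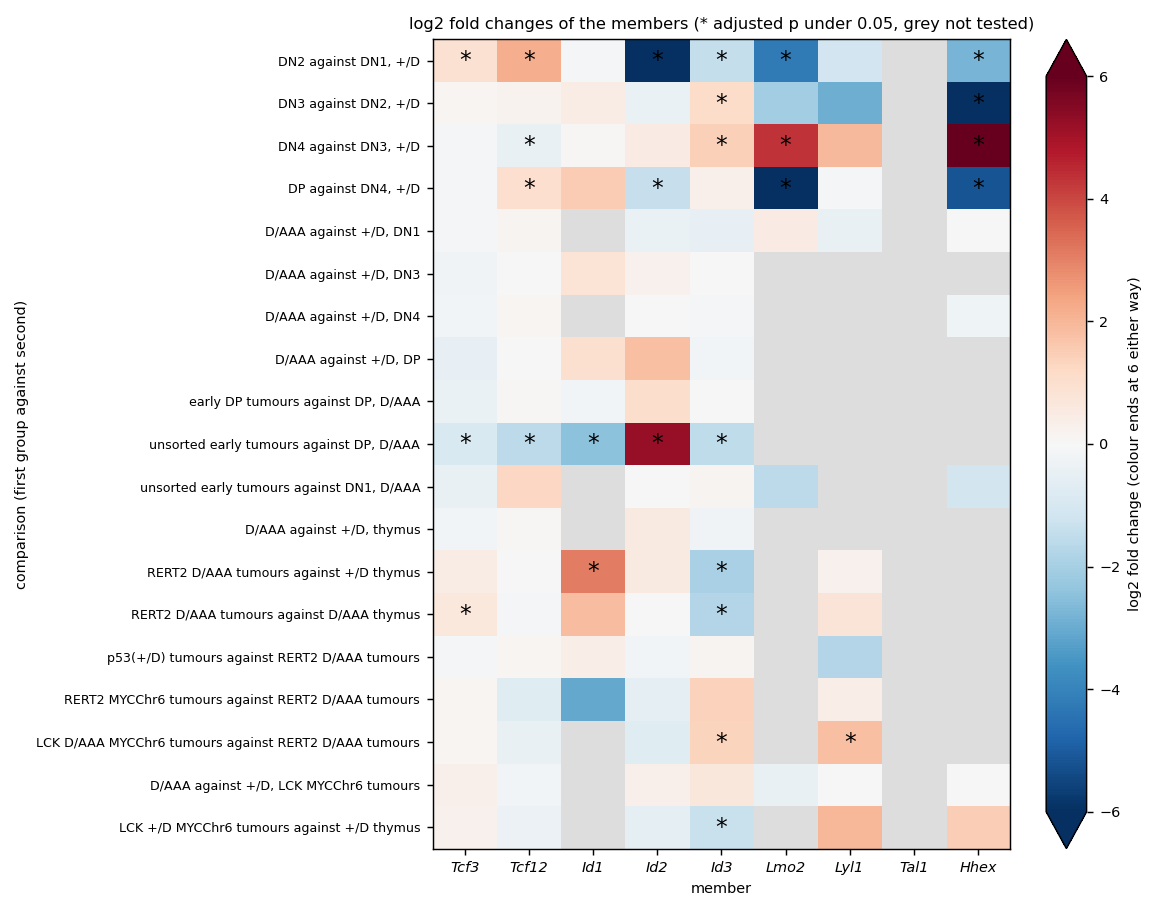
Log2 fold changes of the 9 members in the 19 comparisons of 2 groups, by edgeR; a star marks an adjusted p under 0.05, grey marks a member that did not pass the low-count filter, and the colour scale ends at 6. Stars cluster in the stage steps and in the unsorted early tumours, none stands in a D/AAA against +/D comparison, and Tal1 is grey throughout.

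The ratio of summed Id to summed E protein levels, in CPM per kb, had a median of 0.870 in RERT2-Cdc20(D/AAA), 0.939 in p53(+/D), 0.895 in RERT2 MYCChr6, 1.25 in LCK D/AAA MYCChr6 and 0.883 in LCK +/D MYCChr6 tumours, 2.24 in CD4 D/AAA MYCChr6 tumours and 1.60 in the p53(-/-) tumour, against 2.92 in D/AAA and 2.80 in +/D thymus. In the earlier run it was 16.1 in unsorted and 1.92 in DP early tumours, 8.02 in DN1 and 1.86 in DP cells of D/AAA mice. These ratios were not tested.

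Over the 12 groups of the earlier run, the genes whose mean level was most like that of each member among 12935 genes were Sgta and Ankrd10 for Tcf3 (Pearson's r of 0.972 and 0.958), 1810059H22Rik and Myo10 for Tcf12 (0.991 and 0.989), Csf2rb and Dapk2 for Id2 (0.989 and 0.985), and Kcnmb4 and Gm28592 for Id3 (0.951 and 0.934). For Lmo2 they were Fcmr and Cyp4f18 (0.996 and 0.993), for Hhex Pik3ap1 and Plek (0.984 each), and for Id1 Ica1l and A430072C10Rik (0.921 and 0.919). The groups share libraries of one run, and these values describe likeness only. Lyl1, below 5 CPM in nearly every sorted library, and Tal1, near 0, gave no readable likeness.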

How the data were processed

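RNA of 157 libraries, 81 in the earlier and 76 in the later run, was measured by RNA-seq on an Illumina HiSeq2000, per the labels' protocols. The authors deposited estimated counts per Ensembl gene for each run, held as whole numbers. The tools named are FastQC, STAR 2.5.3a and RSEM 1.3.0 with GRCm38/mm10, per the submitters' processing notes; the sources used here name neither strand setting nor annotation release. All columns matched a sample label (0 left unmapped), and runs were never tested against each other.

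Groups follow the labels' tissue and genotype. Within each run, genes were filtered with filterByExpr, scaled by TMM and tested 2-sided with edgeR 4.0.16 (quasi-likelihood, robust, R 4.3.3), with Benjamini-Hochberg adjustment over all genes tested and a threshold of 0.05. Stage steps came from 1 fit of the 5 sorted +/D groups, the interaction from 1 fit of both genotypes over the stages, and the rest from fits of the 2 groups compared. The filter removes a gene that is low in most libraries, so members such as Lmo2 entered only some comparisons. CPM use TMM-scaled totals, and levels of different genes were compared per kilobase of the union of exons. Alternatives were DESeq2 1.42.0, limma 3.58.1 voom with sample quality weights (called limma voom throughout), relative log expression factors, no filter, other samples in the fit and left-out libraries. Correlations used log2 CPM with a prior count of 2 and 100000 permutations. Fits and permutations were tested on simulated data. Depth limits the precision of low members, since 1 count is worth more CPM in a shallower library, and intervals cover counting error only. Levels and figures were made with Python 3.11.15, pandas 2.3.3, numpy 2.4.6, scipy 1.17.1 and matplotlib 3.10.9.

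The members and gene lists were chosen with earlier results of these data known. All 9 members are reported in every comparison; from each list up to 4 called genes a comparison are named, by adjusted p, with a few further called members that were picked after their values were seen (the values of 1 listed gene are not reported here); and the 2 genes most like each member are named by Pearson's r of group means, among genes of at least 5 CPM in a group. Lists of NK, NKT, B, dendritic, red cell and DP thymocyte markers gave the summed levels of other cells.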

Additional observations from a re-analysis of the deposited data

Results flagged for a closer look

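Of 103 sets of libraries (a member in a group of 4 to 10 libraries), 6 held a library far from the rest by Dixon's test, where chance alone marks about 1 in 20 sets; 23 further sets with fewer than 3 counts in every library were not tested. Id2 was 0.0 CPM in DN1 D/AAA replicate 8, against 557 to 1263 CPM in the other 8, with 0 of 21199 counts in that library. Id3 was 314 CPM in unsorted early tumour replicate 3, against 30.4 to 81.3 CPM in the other 6. The other 4 were low counts: Lyl1 was 3.36 CPM (28 counts) in DP +/D replicate 6, against 0 to 0.416 CPM. Lmo2 was 3.64 CPM (11 counts) in RERT2-Cdc20(D/AAA) thymus replicate 1, against 0 to 0.507 CPM. Id1 was 1.93 CPM (9 counts) in LCK-Cdc20(+/D); MYCChr6 tumour replicate 2, against 0 in the other 3. Tal1 was 0.725 CPM (4 counts) in DN2 +/D replicate 3, against 0 to 0.202 CPM.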

How the results depend on the processing

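Over the alternatives of the 19 comparisons of 2 groups, 844 of 866 values of members that the filter had kept in the reported fit kept their direction and their side of the threshold or were called in neither fit, 15 lost the call, 5 gained one and 2 changed sign while called in one of the fits; 59 changed sign while called in neither. The 2 came without DN4 +/D replicates 1 and 7, where Lmo2 at DN4 against DN3 was -0.75 and Lyl1 at DP against DN4 was 3.99. Of the members called, DN4 against DN3 (4) gave 2 with limma voom and 2 with only the groups compared, where fewer libraries enter the filter, and DP against DN4 (4) gave 2 with voom. Early DP tumours against DP cells (0) gave 1 without DP D/AAA replicates 1 and 5, unsorted early tumours against DN1 cells (0) gave 1 in 1 fit of all groups, and the interaction (0) gave 1, Id2, with library title numbers up to 182156. RERT2 tumours against +/D thymus (2) gave 1 with voom and 1 without replicates 15 and 21. RERT2 MYCChr6 tumours against RERT2 tumours (0) gave 2 in 1 fit of all groups, 2 with no filter and 0 to 2 with a library left out; LCK D/AAA MYCChr6 against RERT2 tumours (2) gave 5 in 1 fit of all groups, 5 with no filter and 1 without replicate 9. LCK +/D MYCChr6 tumours against +/D thymus (1) gave up to 3 with a library left out, the 3 without replicate 4. Pairs of members past the threshold in RERT2 tumours (1) gave 0 with a prior count of 0.5 and 0 with relative log expression factors. Beyond what each setting adds or removes, the cause was not tested. No paired analysis was possible because the labels give no replicate, animal or litter for any library; title numbers of the sorted libraries often step through the stages in turn, but the labels do not tie such runs to one animal, and they were not used as a block. Low totals limit Lmo2, Lyl1, Tal1, Id1 and Hhex, which many libraries hold at 0 to a few counts.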

Other observations

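Some groups entered no comparison. In the 2 CD4-Cdc20(D/AAA); MYCChr6 tumours Id3 was 119 and 89.7 CPM, Lyl1 36.2 and 7.19 CPM, Tcf3 97 and 89.9 CPM, Tcf12 26.1 and 98.9 CPM, Id2 7.09 and 1.22 CPM and Lmo2 0.253 and 0.949 CPM. The Lyl1 value of 36.2 CPM, 286 counts, was the highest of any library of either run. In the single p53(-/-) tumour Tcf3 was 35.3 CPM, Tcf12 94.7 CPM, Id2 15.4 CPM and Id3 31.3 CPM, with Lmo2, Hhex, Id1 and Tal1 at 0 counts. Thymuses without tumour that carry MYCChr6 had Lmo2 at 0 in all 3 D/AAA and both +/D libraries. Their Id3 was 112, 88.6 and 67.9 CPM in D/AAA, and 120 and 70.6 CPM in +/D thymus.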
